A study of Drosophila melanogaster with 2 samples.

Results

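Oxidative phosphorylation genes encode the subunits of the respiratory chain and the ATP synthase of mitochondria. They were chosen by gene symbol, as the protein-coding genes named ND- (complex I), SdhA to SdhD (complex II), UQCR- (complex III), COX followed by a digit (complex IV) or ATPsyn (complex V). This gave 84 of the 13945 protein-coding genes on the 6 chromosome arms of Drosophila melanogaster, 40 in complex I, 4 in complex II, 9 in complex III, 16 in complex IV and 15 in complex V. Of these, 21 were paralogs, with a symbol ending in L or in L and a digit, and 63 were main genes (ND-MNLL among them, whose name comes from a bovine subunit). The measurement was chromatin immunoprecipitation with sequencing (ChIP-seq) of CG3065, which belongs to the Sp/KLF class of zinc finger factors. The single group of samples came from 1 transgenic fly line that stably expressed CG3065 with a C-terminal GFP tag, and an antibody against GFP was used on whole embryos, males and females pooled, at 0 to 16 h of age. There were 2 biological replicates, numbered 1 and 3, and chromatin had been sheared by sonication to 200 to 800 bp. With 1 group and no untreated or untagged samples analysed here, no comparison between groups of samples was possible. Whole embryos mix all cell types, and the age range spans most of embryogenesis, so no cell type or stage can be assigned to a peak.

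Oxidative phosphorylation passes electrons from NADH and succinate along complexes I to IV to oxygen, and complex V makes ATP from the proton gradient that this builds. All but a few of the subunits are encoded in the nucleus, where their genes lie scattered over the chromosomes. Several fly subunit genes have a second copy in the genome, and many such copies are transcribed mainly in the testis. In Drosophila, a palindromic element called the nuclear respiratory gene (NRG) element has been described near many nuclear genes of oxidative phosphorylation.

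The sequences that follow are genomic bases (dm6, RefSeq Release 6) at 6 members, shown because they carry the positions and elements described later. They were chosen after the values were seen, and each is written 5′ to 3′ on the strand of the member. The first 4 are the whole interval between a complex I gene and the neighbour transcribed the other way, each with 1 high-confidence summit inside, and each ends at the base before the member's start. Capitals mark NRG elements (TTATATAA, TTATGTAA, TTACATAA or TTACGTAA) and the DNA replication-related element (DRE, TATCGATA). The interval between ND-42 and Cchl (chr3R:22027481-22027708, plus strand) had its summit at base 39. The interval of ND-MNLL and p115 (chrX:7893799-7894030, minus strand) had it at base 131. In the interval of ND-SGDH and RhoGAP68F (chr3L:12138585-12138867, minus strand) it lay at base 99. In that of ND-51 and CG13994 (chr2L:6062758-6062988, minus strand), which held none of the searched elements, it lay at base 109. The other pair of sequences reaches 50 bases to either side of a summit, so that the summit is base 51. The summit upstream of ATPsynC (chr3R:31219660-31219760, minus strand) was the only one of the IDR list at a member start that no other gene shared. The summit in an intron of COX7AL2 (chr2L:2196823-2196923, minus strand) had the highest signal of any for which a member was the nearest gene, and its capitals mark a GC-rich box of the kind that Sp/KLF proteins bind (CACGCCC).
ND-42: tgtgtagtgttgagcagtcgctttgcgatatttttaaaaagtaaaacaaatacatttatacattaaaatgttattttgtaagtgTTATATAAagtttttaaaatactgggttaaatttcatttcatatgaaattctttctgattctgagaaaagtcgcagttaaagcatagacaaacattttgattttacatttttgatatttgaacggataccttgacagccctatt
ND-MNLL: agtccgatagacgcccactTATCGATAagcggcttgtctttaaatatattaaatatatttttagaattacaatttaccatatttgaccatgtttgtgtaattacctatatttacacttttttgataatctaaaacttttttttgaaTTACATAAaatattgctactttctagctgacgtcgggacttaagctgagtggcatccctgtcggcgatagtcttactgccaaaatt
ND-SGDH: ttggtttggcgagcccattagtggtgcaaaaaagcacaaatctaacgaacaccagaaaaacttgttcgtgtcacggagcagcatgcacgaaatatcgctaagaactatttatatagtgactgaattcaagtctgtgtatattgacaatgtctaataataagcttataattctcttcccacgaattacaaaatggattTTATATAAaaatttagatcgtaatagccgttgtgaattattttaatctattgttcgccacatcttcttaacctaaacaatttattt
ND-51: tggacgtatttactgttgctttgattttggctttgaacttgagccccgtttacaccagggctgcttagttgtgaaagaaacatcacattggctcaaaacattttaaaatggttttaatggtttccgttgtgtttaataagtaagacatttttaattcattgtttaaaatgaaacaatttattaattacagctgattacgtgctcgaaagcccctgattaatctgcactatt
ATPsynC: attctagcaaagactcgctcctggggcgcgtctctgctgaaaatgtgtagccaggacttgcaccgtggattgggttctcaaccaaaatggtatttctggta
COX7AL2: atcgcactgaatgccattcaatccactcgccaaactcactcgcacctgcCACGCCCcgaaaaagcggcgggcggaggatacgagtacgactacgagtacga

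CG3065-GFP peaks of high confidence were found at a minority of the oxidative phosphorylation genes, all of them main genes. A gene was counted when the summit of a peak lay within 500 bp of any of its annotated start sites. The strictest list held the 2451 peaks that the authors thresholded by irreproducible discovery rate (IDR). They are exactly the 2451 entries of highest signal in the list from the pooled replicates. A place among them therefore follows pooled signal and does not show that a peak ranked high in each replicate. This list placed a summit at 12 of 84 members (14.3%, 95% interval 7.61 to 23.6%), against 12.0% of all protein-coding genes. The share of members thus lay near the background. All 12 were among the 63 main genes, a share of 19.0% (10.2 to 30.9%). The list held 0 of 21 paralogs, which by 3 counts allows a share of up to 14.3%, and the upper bound of the exact interval was 16.1%. These exact Clopper-Pearson intervals overlap, they cover counting error only, and neighbouring genes can count the same summit.

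The weaker, relaxed peaks showed the same order of main genes and paralogs. The authors' name for these lists is peaks and background, and not every entry in them stands for a bound site. The list from the pooled replicates (30000 entries) had a summit at 56 of 84 members (66.7%), against 49.3% of all genes. It had one at 49 of 63 main genes (77.8%, 65.5 to 87.3%) and at 7 of 21 paralogs (33.3%, 14.6 to 57.0%), intervals that do not overlap. A summit in the separate lists of both replicates was found at 38 of 84 members (45.2%), against 34.2% of all genes. These were 36 of 63 main genes and 2 of 21 paralogs. The summits of a gene in the 2 lists need not lie at the same place. At the 2 paralogs, COX7AL2 and ATPsynGL, the replicate 1 summit lay 5412 and 436 bp from the pooled one. The replicate 3 summit lay 3 and 33 bp from it. No list had a summit at 5 main genes, all of complex I (ND-75, ND-B14, ND-B14.5A, ND-B14.7 and ND-B16.6), nor at 9 of 21 paralogs (42.9%), against 39.7% of all genes.

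**Figure D1:**
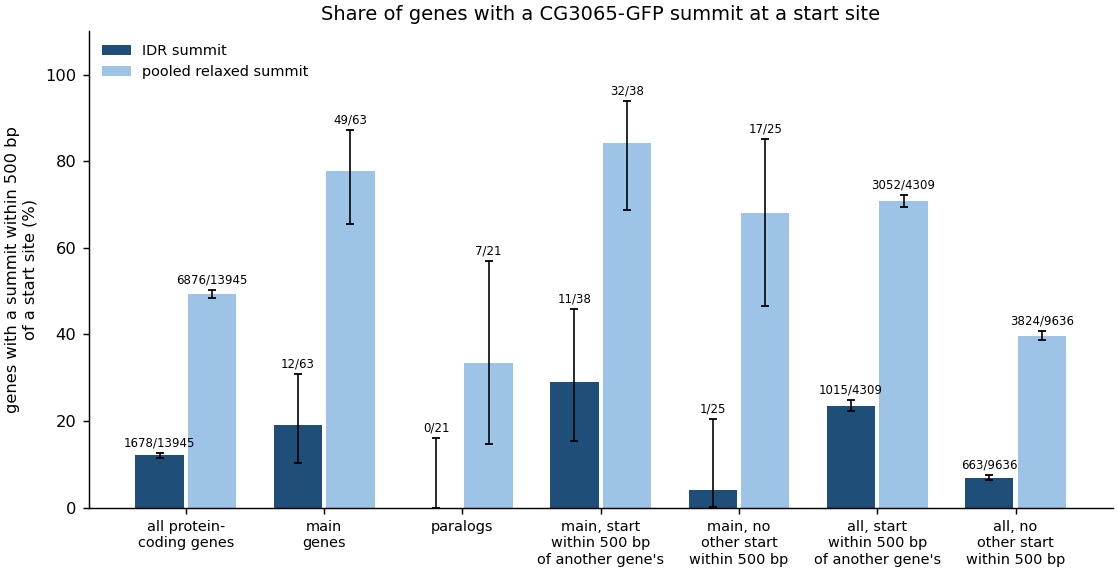
Share of genes (%) with a CG3065-GFP summit within 500 bp of a start site in the IDR list (dark) and the pooled relaxed list (light), with exact 95% intervals and counts above the bars. In the IDR list main genes stood at 12 of 63 and paralogs at 0 of 21, and the shares of main genes and of all genes were both higher where another gene started within 500 bp.

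Complex I, which takes electrons from NADH, held 7 of the 12 members in the IDR list, or 7 of its 34 main genes (20.6%, 8.70 to 37.9%). The signal given below is the authors' value per peak, which has its own scale in each list, so that only ranks can be set side by side between lists. ND-MWFE, an accessory subunit of the membrane arm, had the highest signal of all members at 190 in the pooled list (rank 387), with 92.1 in replicate 1 and 96.5 in replicate 3. ND-ASHI, also of the membrane arm, had 181 (rank 449), with 97.8 and 78.4 in replicates 1 and 3. ND-42, a matrix-facing accessory subunit, had 170 (rank 512), with 61.2 in replicate 1 and 104.9 in replicate 3. These 3 were the strongest members, and their ranks put them in the stronger part of the 2451 peaks, whose median signal was 115.9 and lowest signal 81.3.

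Of the 7 nuclear core subunits of complex I, 2 were in the list (28.6%, 3.67 to 71.0%), against 12.0% of all genes. Another of the 7, ND-75, had no summit in any list. ND-24, an iron-sulphur subunit, reached 126 in the pooled list (rank 1015), 60.9 in replicate 1 and 68.9 in replicate 3. ND-51, which binds NADH and its flavin, had 108 (rank 1415), with 44.6 in replicate 1 and 63.6 in replicate 3. Among the 27 accessory subunits 5 were in the IDR list (18.5%, 6.3 to 38.1%). Of these, ND-SGDH had 118 (rank 1181), with 66.3 and 56.1 in replicates 1 and 3, and ND-MNLL had the lowest signal of the 12 members at 88.1 (rank 2102), with 52.9 and 36.0.

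Outside complex I the IDR list held 1 member of complex II, 2 of complex IV, 2 of complex V and none of complex III. SdhC, a membrane anchor of succinate dehydrogenase, was the 1 of 4 genes in complex II, and its pooled signal was 90.1 (rank 2007), beside 51.8 in replicate 1 and 37.4 in replicate 3. None of the 6 main genes of complex III, the cytochrome bc1 complex, was in the list, a count that allows a share of up to 45.9% by the exact interval. In complex IV, cytochrome c oxidase, 2 of 8 main genes were in the list.

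COX5A had the higher signal of these, 120 in the pooled list (rank 1138), with 60.8 in replicate 1 and 54.9 in replicate 3. COX7B had 93.8 (rank 1856), and its ranks differed most between the replicates among the 12, with 71.7 in replicate 1 (rank 996) and 24.0 in replicate 3 (rank 6454). In complex V, the ATP synthase, 2 of 11 main genes were in the list. ATPsynE, subunit e of the membrane part, had 103 (rank 1563), with 54.6 and 45.3 in replicates 1 and 3. ATPsynC, which forms the rotating ring of c subunits, had 90.5 (rank 1994), with 56.9 in replicate 1 (rank 1627) and 28.5 in replicate 3 (rank 4353). With counts this small the complexes could not be told apart: the exact interval ran from 0.631 to 80.6% in complex II, from 3.19 to 65.1% in complex IV and from 2.28 to 51.8% in complex V.

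The median signal of the 12 members in the IDR list was 113, against 123 over the 1678 protein-coding genes in it. Each of the 12 also had a relaxed summit in both replicates. Their summits lay within 250 bp of the start site in 12 of 12 cases, against 78.1% of all genes in the list. They lay upstream of it in 9 of 12 cases, against 88.3% of all genes.

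Nearly all of these summits stood where a second gene also began. At 11 of the 12 members the summit was within 500 bp of the start of another gene (all genes in the list, 60.1%), and each time that gene was transcribed from the other strand. Taking for each gene the start nearest to the summit, the starts of each pair were 42 to 522 bp apart, with a median of 233 bp. Between these starts lay 8 of the 11 summits. Other annotated starts came closer to each other, 20 bp at COX5A and glo and 164 bp at ND-ASHI and Fum1. The summit of ND-42 lay 190 bp upstream of its start and 39 bp from that of Cchl, which encodes cytochrome c heme lyase. That of ND-MWFE, on arm 2R, lay 209 bp upstream and 12 bp from the start of TppII, a peptidase gene, inside an intron of which it fell. ND-ASHI shared its summit with Fum1, the fumarase gene of the citric acid cycle, 229 bp from the one start and 293 bp from the other. This summit also fell in an annotated intron of Fum1.

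The remaining pairs joined oxidative phosphorylation to genes of many roles. ND-51 was paired with CG13994 (summit 123 and 109 bp from the starts), ND-SGDH with RhoGAP68F (185 and 99 bp), and COX7B with the exocyst gene Sec3 (157 and 103 bp). SdhC was paired with Tctp (162 and 236 bp) and ND-MNLL with the Golgi tether p115 (102 and 131 bp), and the annotation gives CG45089 the same start as ND-MNLL. At ATPsynE, paired with Afti, at ND-24, paired with the meiotic gene corolla, and at COX5A, paired with the RNA-binding protein gene glo, the summit lay 10, 78 and 106 bp downstream of the member's start and outside the interval between the starts. ATPsynC alone had its summit, 80 bp upstream, to itself.

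**Figure D2:**
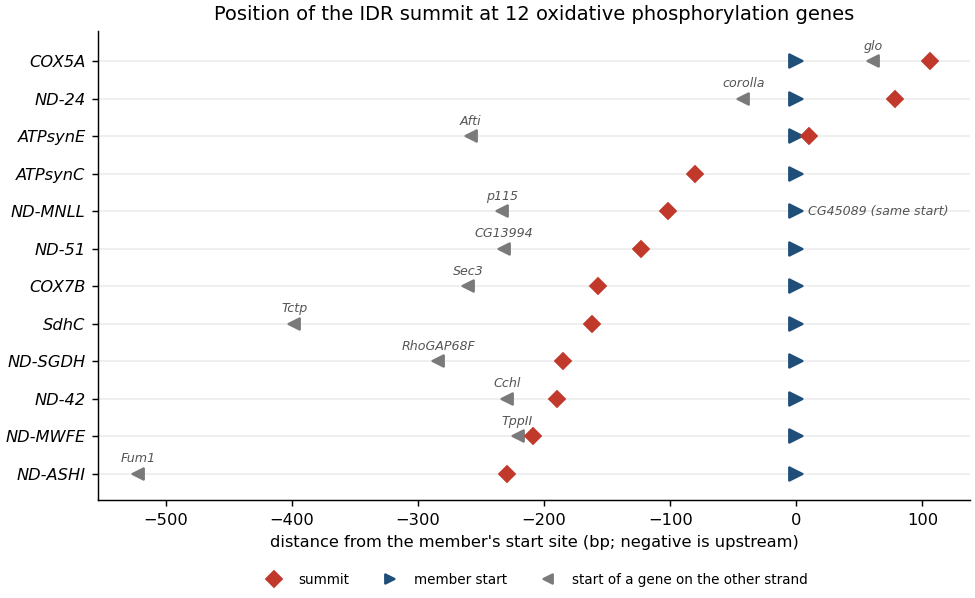
Position of the IDR summit (diamond) in bp from the start site of each of the 12 members (blue arrow at 0), with the start of the gene on the other strand nearest to the summit (grey arrow). In 8 of the 11 pairs the summit lies between the 2 starts, and ATPsynC has no other start within 500 bp of its summit.

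Counting each summit only for its nearest start left 6 of 84 members (ND-24, ND-ASHI, ND-MNLL, SdhC, ATPsynC and ATPsynE), all main genes, against 8.66% of all genes. The summits at ND-42, ND-MWFE, ND-51, ND-SGDH, COX5A and COX7B were nearer to the neighbour. Main genes often had such a neighbour whether or not CG3065-GFP was there. Another gene started within 500 bp of 38 of 63 main genes (60.3%, 47.2 to 72.4%), of 3 of 21 paralogs (14.3%, 3.05 to 36.3%) and of 30.9% of all genes. Among genes with such a neighbour the IDR list held 11 of 38 main genes (28.9%, 15.4 to 45.9%), against 23.6% of all genes. Among genes without one it held 1 of 25 main genes (4.0%) and 0 of 18 paralogs, against 6.88% of all genes. Within either class the share of main genes was near that of all genes. In the pooled relaxed list, among genes without a neighbour, 17 of 25 main genes (68.0%, 46.5 to 85.1%) and 7 of 18 paralogs (38.9%, 17.3 to 64.3%) had a summit, against 39.7% of all such genes. The number of start sites also differed. A single one was annotated for 31 of 63 main genes, 19 of 21 paralogs and 73.5% of all genes. Among genes with 1 start site the IDR list held 4 of 31 main genes (12.9%, 3.63 to 29.8%) and 0 of 19 paralogs, against 9.20% of all genes. What part the neighbours and the number of starts have in the difference between main genes and paralogs was not tested.

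Every complex also had members in the pooled relaxed list alone, the highest of them at 73.0 against the IDR floor of 81.3. In complex I, ND-B8 and ND-23 had pooled signals of 71.1 each and ND-B22 of 67.4, and all 3 had a summit in both replicates. Their replicate signals were 36.9 and 33.3 for ND-B8, 53.0 and 27.2 for ND-23, and 29.0 and 43.9 for ND-B22, in replicates 1 and 3. ND-23 is a core iron-sulphur subunit, and its start lies near that of spn-E.

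In complex II the iron-sulphur subunit SdhB had 64.5 in the pooled list, with 33.0 in replicate 1 and 25.2 in replicate 3. SdhD had 33.6 and the flavoprotein subunit SdhA 28.8 in the pooled list, with 24.7 and 27.9 in replicate 1 and none listed in replicate 3. All 4 genes of the complex thus had a relaxed summit, and 2 of them in both replicates. In complex III the highest was UQCR-14 at 62.9, with 35.4 in replicate 1 and 24.0 in replicate 3. UQCR-Q at 53.1 and the core protein gene UQCR-C2 at 41.7 were listed in replicate 1 (45.0 and 35.3) and not in replicate 3.

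In complex IV, COX6B had 68.8 in the pooled list and 50.9 in replicate 1, with no summit listed in replicate 3. COX7C had 66.0, with 41.3 and 25.6 in replicates 1 and 3, and COX7A had 56.9, with 27.6 and 25.6. The lowest member of the complex was COX4 at 22.8, close to the lowest entry of the pooled list, 21.5. In complex V the rotor subunit gene ATPsyngamma had the highest pooled signal of all members outside the IDR list, 73.0, with 39.0 in replicate 1 and 31.4 in replicate 3. ATPsynD had 57.8 (24.2 and 31.6) and ATPsynCF6 56.6 (29.8 and 26.1).

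Set side by side, the main genes that had a pooled summit gave medians of 53.1 in complex I (23 of 34 genes), 49.0 in complex II (4 of 4), 47.4 in complex III (4 of 6), 61.5 in complex IV (8 of 8) and 53.9 in complex V (10 of 11). Over all main genes with a pooled summit the median was 53.1, against 48.5 over the 6876 protein-coding genes with one. These medians leave out the genes with none, 11 of which were in complex I.

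**Figure D3:**
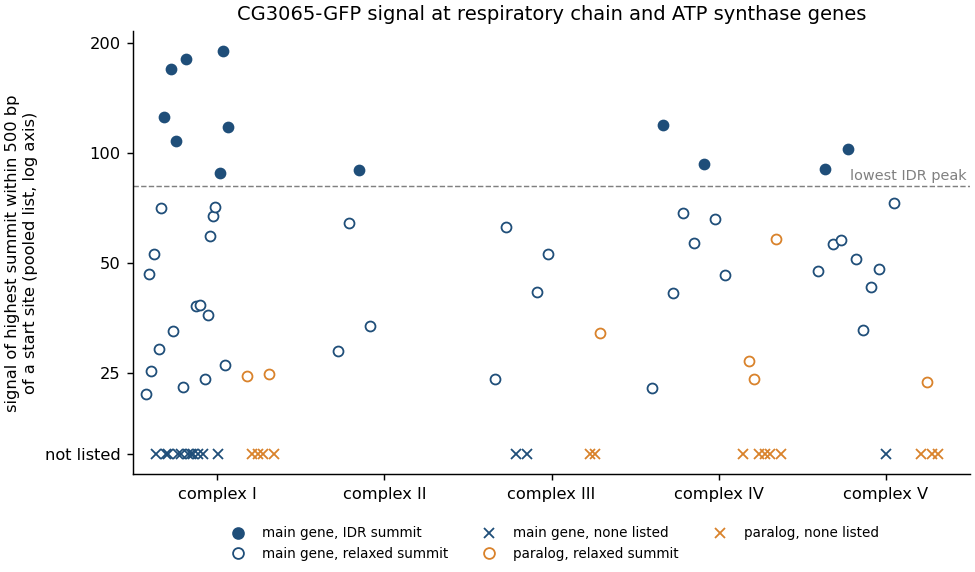
Signal of the highest pooled summit (log axis) within 500 bp of a start site for each of the 84 members, by complex, for main genes (blue) and paralogs (orange), with crosses for genes with no summit in the pooled list. Filled points, all main genes, are the 12 members in the IDR list, and the dashed line is the lowest signal in that list, 81.3.

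The paralogs with a relaxed summit lay at the weak end of the scale with 1 exception. COX7AL2 had a pooled signal of 58.5 within 500 bp of a start site, at its most downstream start, with 24.4 in replicate 3 at the same place, while the replicate 1 value of 18.2 came from a summit 5412 bp away. The pooled summit lay 396 bp inside COX7AL2, in its 3′ UTR, and was shared with CG10874, whose start was nearer at 181 bp. The other 6 ran from 32.2 at UQCR-6.4L down through COX5BL (27.0), ND-51L2 (24.8), ND-20L (24.6) and COX6AL (24.1) to 23.6 at ATPsynGL. The median of the 7 was 24.8.

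Most of these were seen in 1 replicate. UQCR-6.4L had 23.4 and ND-51L2 13.4 in replicate 1, with none listed in replicate 3. ND-20L had 18.1 and COX6AL 15.9 in replicate 3, with none listed in replicate 1. ATPsynGL had 13.9 in replicate 1 and 19.1 in replicate 3, its summits lying 436 and 33 bp from the pooled one, and COX5BL was in neither replicate's list. The lowest entries of the replicate lists stood at 11.4 (replicate 1) and 13.7 (replicate 3), so several of these values lay near the floor.

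Set against the gene each is named for, the paralog was usually the weaker or the one without a summit. The 17 paralogs with such a main gene among the members were named for 15 main genes. In 10 pairs the pooled list had a summit at the main gene only, among them ND-24 (126, IDR list) against ND-24L and ND-51 (108, IDR list) against ND-51L1. In 5 pairs both had one, and the main gene was the higher in 4 of them, such as ND-51 (108) over ND-51L2 (24.8) and COX5B (41.4) over COX5BL (27.0). The exception was COX7AL2 at 58.5 beside COX7A at 56.9, which are nearly equal, and in both replicates COX7AL2 was the lower (18.2 against 27.6 in replicate 1, 24.4 against 25.6 in replicate 3). One of the 4, ATPsynG (32.9) over ATPsynGL (23.6), was the other way round in both replicates, with 13.2 against 13.9 in replicate 1 and 17.0 against 19.1 in replicate 3. For these pairs the pooled order was not that of the highest summits in the replicates. In replicate 1 the summits of COX7AL2, ATPsynGL and ATPsynG lay 5412, 436 and 402 bp from the pooled ones, so other peaks were compared there. In replicate 3 the distances were 3 bp at COX7AL2, 7 bp at COX7A, 33 bp at ATPsynGL and 85 bp at ATPsynG. At UQCR-6.4L the paralog alone had a pooled summit, and at ND-B14.5A and ND-B14.5AL neither did. Some copies lie close to their main gene. The starts were 867 bp apart at COX7C and COX7CL, 1631 bp at COX5B and COX5BL and 2626 bp at COX7A and COX7AL. Pairs that share a main gene are not independent.

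The strongest peak nearest to any oxidative phosphorylation gene was at a paralog and not at a start site. It lay in an intron of COX7AL2 (chromosome arm 2L, 2196638 to 2197046, dm6), 1039 bp from the nearest annotated start, which is that of COX7AL2. Its signal of 635 ranked 17 in the pooled list, with 405 in replicate 1 (rank 6) and 231 in replicate 3 (rank 30). A second IDR summit lay 3364 bp from a COX7AL2 start, where the pooled signal was 128, beside 83.9 in replicate 1 and 45.4 in replicate 3. Neither lay within 500 bp of a start, so COX7AL2 stayed outside the 12.

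Another 2 members were the nearest start of a distant IDR summit. UQCR-6.4L was 1048 bp from one in an intron of Mipp1, with 105 in the pooled list, 57.8 in replicate 1 and 44.1 in replicate 3. COX7C was 1939 bp from one in an intron of oys, with 95.7 in the pooled list, 48.7 in replicate 1 and 43.7 in replicate 3. Distance alone does not say which gene a summit belongs to.

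The replicates ordered the members about as they ordered all genes. Over the 38 members with a summit in both replicates, the Spearman rank correlation between the signals of replicate 1 and replicate 3 was 0.726, and over all 4768 such genes it was 0.725. Over the 12 members of the IDR list it was 0.399, in a set cut to a narrow range of signal. These are correlations across genes, which are not independent replicates. Replicate 1 listed a summit at 57 of 63 main genes and replicate 3 at 37 of 63, against 52.0% and 41.1% of all genes, and their lists held 30000 and 26271 entries. Among paralogs the counts were 7 of 21 (33.3%) in replicate 1 and 6 of 21 (28.6%) in replicate 3. Taking the 2451 strongest entries of 1 replicate in place of the IDR list changed which members were found. Replicate 3 alone gave 9 members, without ATPsynC, COX7B, ND-MNLL and SdhC and with ND-B22 added, beside 11.8% of all genes. Replicate 1 alone gave 13, without ND-51 and with COX6B and ND-23 added, beside 12.3% of all genes.

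**Figure D4:**
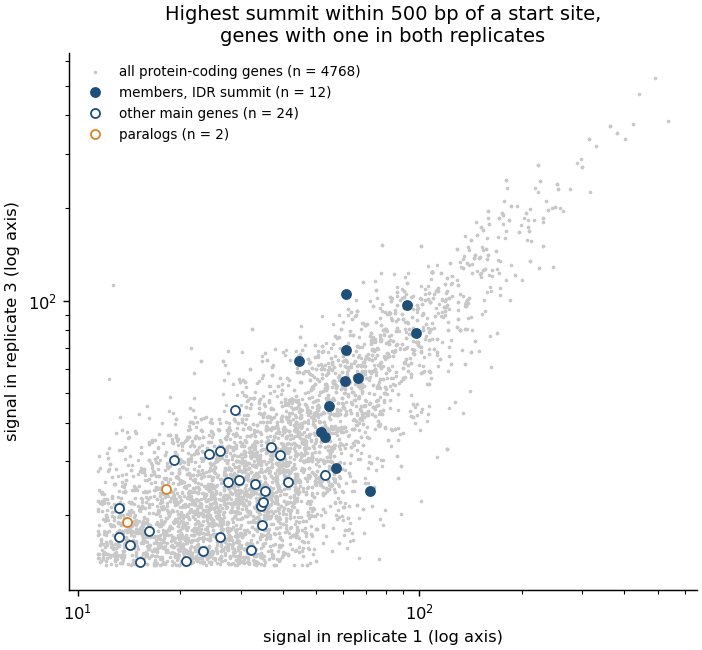
Signal of the highest summit within 500 bp of a start site in replicate 1 (horizontal) and replicate 3 (vertical), both on log axes, for the genes with one in both lists: all 4768 protein-coding genes (grey), 12 members of the IDR list (filled blue), 24 other main genes (open blue) and 2 paralogs (orange). The members lie within the cloud of all genes, and COX7B is the filled point lowest in replicate 3.

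The letters around the start sites of the members were counted next, from 250 bp before to 50 bp after the start used, on both strands. A match describes the sequence and is not a site of binding, and the lack of one says only that these letters are not in the window. The GC-rich Sp/KLF box (CACGCCC as printed above, or with one of the words CCCGCCC or else CACACCC or else CCCACCC) was found at 2 of 84 members (2.38%), against 6.67% of all genes. None of the 12 members of the IDR list had it, against 6.79% of all genes in that list, and in a wider window (500 bp before to 100 bp after) 1 of the 12 did, against 14.7%. Within 50 bp of the summit it was again at 0 of the 12, against 6.48% of the 1158 IDR summits at start sites and 11.3% of all 2451, the intronic summit of COX7AL2 printed above being one of these. The bases around the 12 summits had a median GC content of 29.2% (24.8 to 49.5%), against 34.7% over the 1158 summits, and the highest was the ATPsynC window printed above.

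Other elements of fly promoters were counted in the same window. The core of motif 1 (GGTCACAC), an element of fly housekeeping promoters, was found at 16 of 63 main genes (25.4%), at 1 of 21 paralogs and at 7.52% of all genes. It was found at 4 of the 12 members in the IDR list, ATPsynC, COX5A, COX7B and ND-MWFE, against 10.4% of all genes in that list. Outside the list it was found at 12 of the 51 main genes (23.5%). The NRG element was found at 6 of 63 main genes (9.52%), at no paralog and at 5.26% of all genes. Its 3 cases among the 12 members of the IDR list were ND-42, ND-MNLL and ND-SGDH, whose intervals are printed above. Over all genes in that list the share was 6.08%. Its other 3 cases were ATPsyngamma, ND-30 and ND-49. In the wider window it was at 3 of the 12, 9 of the 51 other main genes (17.6%) and 10.7% of all genes in the list. Within 50 bp of the summit it was at 1 of the 12, against 2.42% of the 1158 IDR summits at start sites. The DRE was found at 8 of 63 main genes (12.7%), at no paralog and at 9.14% of all genes. The E-box CACGTG was found at 2 of 63 main genes (3.17%), as many as had the Sp/KLF box, at 2 of 21 paralogs and at 4.24% of all genes. Genes that share an interval share its letters, and no test was made on these shares.

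Other nuclear genes of mitochondrial energy metabolism, from lists compiled by function, were read in the same way. One list, which is not complete, held 5 subunits whose symbols the rule leaves out, SdhAL, SdhBL, Cyt-c1, levy and cype. Of these, levy and cype, subunits of complex IV, were both in the IDR list. Levy reached 124 in the pooled list, with 61.0 in replicate 1 and 63.9 in replicate 3. Cype had 87.5, with 46.8 and 36.2. Both summits were shared, that of levy with wmd and that of cype with Ncoa6. Counted for the nearest start only, 0 of the 5 were in the list, beside 8.66% of all genes. With a window of 250 bp 1 was, beside 9.59% of all genes. The copies of levy and cype among the members, COX6AL, COX6AL2 and COX6CL, were not in it.

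The list of the citric acid cycle, which feeds the chain with NADH and succinate, also held the pyruvate dehydrogenase genes Pdha and Pdhb. Of its 15 genes, 6 were in the IDR list (40%, 16.3 to 67.7%). Idh3g, a subunit of isocitrate dehydrogenase, had the highest signal of these at 213 (130 in replicate 1 and 87.0 in replicate 3). Fum1 had the 181 that it shares with ND-ASHI, and mAcon1, Pdhb, Idh3b and the citrate synthase gene kdn had 135, 122, 121 and 101 in the pooled list. The summits of Idh3g, mAcon1 and Pdhb were also shared with other genes. Counted for the nearest start only, 3 of the 15 genes were in the list, beside 8.66% of all genes. With a window of 250 bp 5 were, beside 9.59% of all genes. Ubiquinone, the carrier from complexes I and II to complex III, had 3 of 9 genes of its synthesis in the list. They were Coq4 at 314 (148 and 163 in replicates 1 and 3), Coq7 at 161 (94.2 and 65.0) and Coq3 at 117 (55.7 and 63.2). Coq4 shared its summit with CG32176 and Coq3 with Pld3. By nearest start only, 2 of the 9 genes were in the list, beside 8.66% of all genes.

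The remaining lists had 0 to 3 genes each in the IDR list. Among 12 genes of complex assembly, CIA30, a factor of complex I, had 253 (123 and 133) and Cox17, which carries copper to complex IV, 127 (68.6 and 58.2). The CIA30 summit was shared with CG7601. Among 8 genes of cytochrome c and electron transfer only Cyt-c-d was in the list, at 213 (142 and 68.1), and the other cytochrome c gene, Cyt-c-p, had 44.1 in the pooled list. The Cyt-c-d summit lay 378 bp downstream of its start and was shared with CG31808. With a window of 250 bp, or counted for the nearest start only, 0 of the 8 were in the list, beside 9.59% and 8.66% of all genes. With 1000 bp 3 were, beside 14.1% of all genes. Of 11 genes for mitochondrial DNA and its expression, mtSSB had 142 (52.0 and 89.0) and mTerf5 91.8 (44.4 and 45.9). The mTerf5 summit was shared with Non3. None of 6 genes for the exchange of ADP, ATP and phosphate was in the list. Of 6 genes listed as regulators of respiratory genes, 3 were in the IDR list. They were Dref at 116 (69.0 and 41.8), CG3065 itself at 114 (59.9 and 46.0) and ERR at 87.5 (39.7 and 51.3). The place of CG3065, the tagged factor, among these regulators was chosen and is not a result of these data. These summits were shared with RpL13, CG10904 and Atg18a, in that order. By nearest start only, 2 of the 6 were in the IDR list, beside 8.66% of all genes. In all, 19 of the 71 distinct genes in these lists were in the IDR list, beside the 12.0% of all genes given above. The lists are small, were drawn up by function and were chosen with earlier results of these data known. They include CG3065 itself and Fum1, whose summit is also counted at ND-ASHI. Setting the 19 genes beside the share of all genes is therefore not a test.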

How the data were processed

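The peak lists were deposited by the authors in narrowPeak format for dm6 and dm3, and the dm6 lists were used. Per the file records there is a relaxed list for each of the 2 replicates, a relaxed list of both pooled, and the IDR-thresholded list. The signal of each peak is the authors' deposited value, with no stated normalization. The deposited −log10 q value of each peak was read and shared a common maximum in the 12 members of the IDR list, so it was not used to rank them. Not given in the sources used here are the aligner, the caller, any version and the threshold for IDR. Sequencing depth is unknown, since no file gives reads. The 2451 IDR peaks are exactly the 2451 pooled entries of highest signal, so the IDR list is a cut on pooled signal.

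Start sites came from Ensembl release 115 (BDGP version 6.54), and all relaxed peaks ended within the Release 6 chromosome lengths. Coordinates are 1-based dm6. For each gene the highest summit within 500 bp of any start was taken separately in each list, so the replicate value can rest on a nearby summit. Shares have exact Clopper-Pearson 95% intervals. They were set beside the share of all 13945 protein-coding genes without a test, since genes are not replicates and 1 group was measured. Nothing in the labels says that the biological replicates came from separate embryo collections.

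The members, gene lists and motifs were chosen with earlier results of these data known. Named genes are all members in the IDR list, up to 3 per complex with the highest signal below it, all paralogs with a pooled summit, the members nearest to an IDR summit more than 500 and up to 5000 bp away, and the genes of other lists in the IDR list. Those named outside this rule were chosen after their values were seen. Of the symbols in the other lists, 8 of complex assembly, 1 of the citric acid cycle and 1 of electron transfer were not matched. Alternatives changed the window, the overlap, the start sites used, the assignment of shared summits, the threshold and the motif window, and left out each replicate. The assignment of summits was tested on simulated data. The tools were numpy 2.4.6, scipy 1.17.1 and matplotlib 3.10.9, run in Python 3.11.15.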

Additional observations from a re-analysis of the deposited data

How the results depend on the processing

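The limits are the small counts, a single group and the shared summits. Windows of 250 and 1000 bp, overlap of the whole peak by 1 bp and use of the outermost start only each gave the same 12 members in the IDR list, and paralogs stayed at 0 under all alternatives run for that count. Counting each summit only for its nearest start gave 6 members, all main genes, 3 in complex I and 0 in complex IV, beside 8.66% of all genes. It also gave 24 members with a summit in both replicates, for which the share of all genes was not counted. Of the 71 genes of the other mitochondrial lists, it left 11 in the IDR list. The 1225 IDR peaks of highest signal held 6 members, all main genes, with 0 in complex II, 1 in complex IV and 0 in complex V, beside 6.83% of all genes. Leaving out all summits shared with another gene's start, an alternative chosen after seeing the data, left 1 member, ATPsynC, beside 661 of all protein-coding genes. Leaving out each replicate in turn gave 0 to 1 member in complex II, 1 to 3 in complex IV and 1 to 2 in complex V, the lower value each time without replicate 1. For the rank of members in the list, as a percent of its length, the median over the 12 was 4.33% in the pooled list, and 4.20 to 4.71% with each replicate left out. A window of 250 bp left 4 of 21 paralogs with a pooled summit, and the share of all genes with one was not counted. For the motifs, a window from 500 bp before to 100 bp after the start gave 6 members (7.14%) with the Sp/KLF box, 3 of them paralogs, beside 14.3% of all genes, and 13 (15.5%) with the NRG element, beside 10.7%. A window of 50 bp to either side of the pooled summit was read at the 56 members with one. It gave 3 with the Sp/KLF box (5.36%), 1 with the DRE (1.79%), 2 each with the NRG element and motif 1 (3.57%) and 0 with the E-box. Over the 1158 IDR summits at start sites, a different set, the shares were 6.48% (Sp/KLF box), 3.54% (DRE), 2.42% (NRG element), 1.81% (motif 1) and 1.38% (E-box). The cause of these changes was not tested, beyond the smaller or larger sets of summits and bases that each alternative reads. No paired analysis was possible because there was 1 group of samples.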
